A study of Homo sapiens with 20 samples.

Results

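RUNX1 occupancy was examined at 10 genes of antigen presentation by major histocompatibility complex (MHC) class II: CIITA, CD74, HLA-DRA, HLA-DRB1, HLA-DQA1, HLA-DQB1, HLA-DPA1, HLA-DPB1, HLA-DMA and HLA-DMB. All RUNX1 peaks within 50 kb of the RefSeq span of such a gene on GRCh38 were taken, which gave 20 of the 26642 peaks in the deposited count table. CIITA on chromosome 16 had 5 of these peaks, CD74 on chromosome 5 had 4, and the class II region of chromosome 6 held the other 11. At 9 of the 10 genes there was at least 1 peak, and only HLA-DRA had none.

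RUNX1-bound chromatin had been precipitated and sequenced (ChIP-seq) from the human monocytic leukemia cell line THP-1, in which an inducible shRNA lowered PU.1, a myeloid transcription factor (knockdown), or a scramble shRNA was induced in its place (control). Both groups received doxycycline, at 20 ng/ml, for 72 h per the study's methods, so the agent itself is shared by both. Batch 1 contributed 3 control and 2 knockdown libraries and batch 2 contributed 3 control and 4 knockdown libraries, which gives n = 6 per group. The 8 IgG libraries were not analysed here, and an RNA or protein level of PU.1, RUNX1 or any class II gene is not part of these data, so neither the knockdown nor the labelled cell type could be checked by its markers.

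CIITA is the master coactivator of MHC class II genes: it binds no DNA itself and is recruited by the RFX complex, CREB and NF-Y to the X and Y boxes in front of each class II gene. HLA-DR, HLA-DQ and HLA-DP are pairs of an alpha and a beta chain that present peptides on professional antigen-presenting cells such as dendritic cells, B cells and macrophages. CD74, the invariant chain, guides them to the endosome and blocks their groove, and HLA-DM, the pair of HLA-DMA and HLA-DMB, exchanges the last remnant of CD74 for peptide.

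The promoters of 4 genes are printed to show how they lay against the peaks: CD74 and HLA-DMA, whose promoters lay inside a RUNX1 peak, HLA-DMB, whose promoter overlapped the edge of a peak by 30 bases, and HLA-DRB1, which had no peak closer than 33061 bp to its start. Each sequence gives the 250 bases before the RefSeq start on GRCh38.p14, read along the gene, and capitals mark matches on either strand to CCAAT (or ATTGG, the Y box letters bound by NF-Y), CGTCA (or TGACG, the core of a cyclic AMP response element), GAGGAA (or TTCCTC, a purine-rich core that PU.1 prefers) and CTGATGATG (letters that cover part of the X box). All 4 genes are on the minus strand, and their windows are chr5:150412911-150413160 (CD74), chr6:32953098-32953347 (HLA-DMA), chr6:32941029-32941278 (HLA-DMB) and chr6:32589849-32590098 (HLA-DRB1).
CD74: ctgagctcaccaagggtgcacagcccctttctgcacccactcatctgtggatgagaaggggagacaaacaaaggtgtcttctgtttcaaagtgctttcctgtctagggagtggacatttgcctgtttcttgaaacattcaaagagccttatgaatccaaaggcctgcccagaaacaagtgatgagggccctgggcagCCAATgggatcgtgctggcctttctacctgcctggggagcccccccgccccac
HLA-DMA: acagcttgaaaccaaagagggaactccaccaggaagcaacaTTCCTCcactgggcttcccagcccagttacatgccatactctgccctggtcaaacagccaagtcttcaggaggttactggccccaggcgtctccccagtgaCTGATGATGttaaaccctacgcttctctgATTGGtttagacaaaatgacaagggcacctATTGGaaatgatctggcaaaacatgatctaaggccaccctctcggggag
HLA-DMB: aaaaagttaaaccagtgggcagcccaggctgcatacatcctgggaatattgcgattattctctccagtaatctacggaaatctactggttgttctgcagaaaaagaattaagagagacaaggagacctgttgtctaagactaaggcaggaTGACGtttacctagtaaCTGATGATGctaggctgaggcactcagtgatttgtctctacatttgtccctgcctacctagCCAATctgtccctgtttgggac
HLA-DRB1: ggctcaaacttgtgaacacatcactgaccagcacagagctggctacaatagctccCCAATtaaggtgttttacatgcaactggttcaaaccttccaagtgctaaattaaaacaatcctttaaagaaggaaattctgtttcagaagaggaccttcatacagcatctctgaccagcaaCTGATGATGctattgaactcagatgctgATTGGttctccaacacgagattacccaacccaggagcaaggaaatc

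The X box letters were added to the search after the sequences had been read. Their share over all promoters is therefore printed as a description and is no test of enrichment. They occurred in 3 of the 8 member genes with a promoter sequence, at -108 to -100 from the start of HLA-DMA, at -83 to -75 from that of HLA-DMB and at -74 to -66 from that of HLA-DRB1, and in 0.222% of all 35116 RefSeq promoters searched. CCAAT was found in 7 of the 8 genes (32.0% of all promoters), GAGGAA in 5 (23.6%) and CGTCA in 4 (21.2%). HLA-DPA1 had 2 promoter windows, so that the 8 genes had 9, while the shares over all promoters are per window. The RUNX letters TGTGGT were in 0 of the 9 windows (11.0% of all promoters), as were the letters of the interferon-stimulated response element core (3.02%) and of the ETS and IRF composite element (2.41%), each searched on both strands. A match is a description of letters and not of a bound site. CIITA and HLA-DRA had no entry in the promoter table used.

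Of the 20 peaks, 10 lost RUNX1 upon PU.1 knockdown, 0 gained it and 10 were not called. A peak was called at a DESeq2 adjusted p under 0.05 over all peaks and a fold change over 1.1. Among all 26642 peaks, 42.0% were called, 20.7% as lost and 21.3% as gained. The median log2 fold change was -0.59 over the 20 peaks and -0.025 over all peaks, and 16 of the 20 values were below 0. edgeR's quasi-likelihood test also called 10 lost and 0 gained, where it called 22.9% of all peaks lost and 24.1% gained, and 0 of the peaks with a value above 0 reached an unadjusted p under 0.05 with either tool. A loss of more than 2-fold was fitted at 6 of the 20 peaks, against 8.20% of all peaks.

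**Figure D1:**
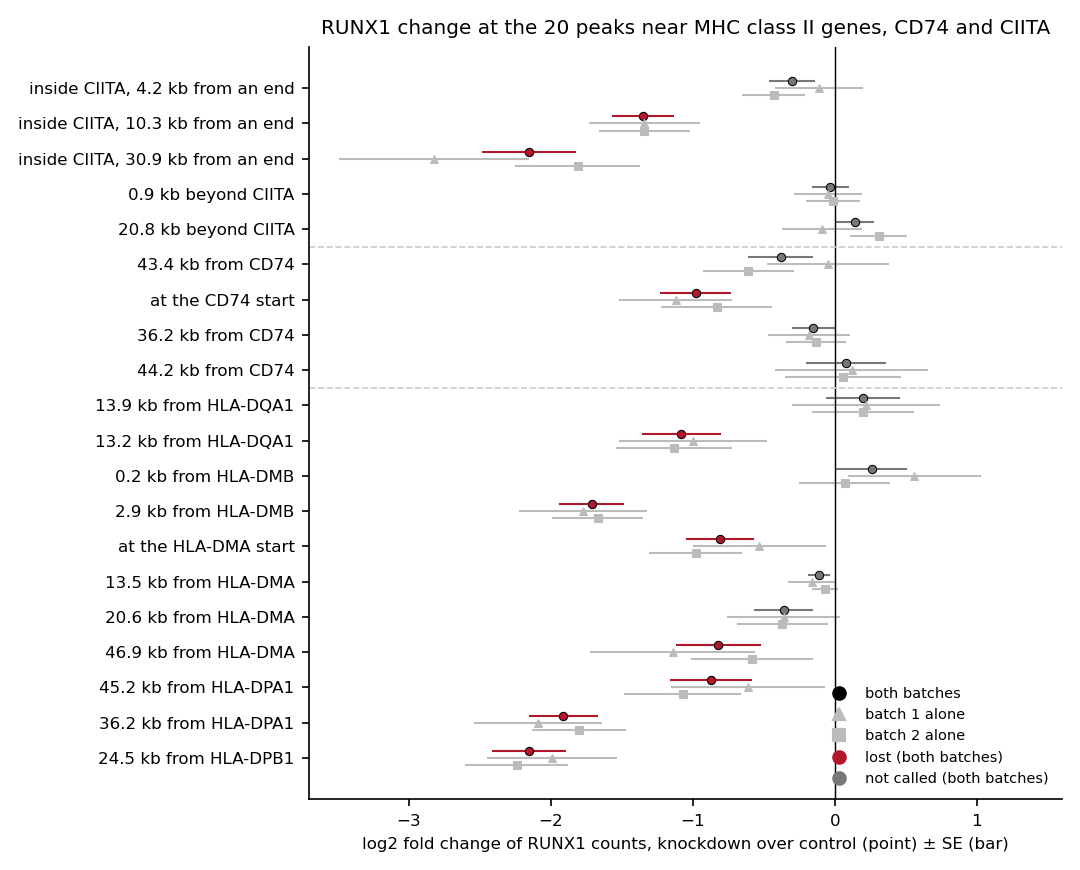
DESeq2 log2 fold change (knockdown over control) with its SE for each of the 20 peaks, in the order of the 3 regions CIITA, CD74 and class II from top to bottom. Circles are the fit of both batches, red where the peak was called lost and dark grey where it was not called, and light grey triangles and squares are batch 1 alone and batch 2 alone. The 10 lost peaks lay between -2.15 and -0.81, and none of the 20 exceeded 0.26.

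The direction was shared by the batches. In batch 1 alone, 6 peaks were lost and 0 gained, where 6.61% of all peaks were lost and 5.38% gained. In batch 2 alone, 8 peaks were lost and 0 gained, where 13.1% were lost and 12.8% gained. The median over the 20 peaks was -0.45 in batch 1 and -0.60 in batch 2. In 5 peaks the loss was called in each batch by itself (5.85% of all peaks). All 10 lost peaks were below 0 in both batches, but they had been called from the same libraries, so their sign is no independent support. The test of the difference between batches called 0 of the 20 with DESeq2 or edgeR (0 also at an unadjusted p under 0.05 with either tool, where 2.51% of all peaks passed with DESeq2 and 0 after adjustment). Every knockdown library was below every control library of its batch at 9 of the 20 peaks, and at 0 was every one above, against 13.9% and 14.4% of all peaks.

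CIITA spans chr16:10866206-10943021 and held both of its lost peaks inside the gene. The deeper one, chr16:10897085-10897723, lay 30.9 kb from the nearer end of the gene and had normalised counts of 31.2, 21.4 and 21.9 in the control libraries of batch 1 and 29.5, 21.1 and 21.1 in those of batch 2. The knockdown libraries gave 3.65 and 3.29 in batch 1 and 3.56, 8.59, 6.37 and 7.45 in batch 2. So no knockdown library came near a control library, although the peak was small, with raw counts of 3 to 24 per library. The mean fell from 24.4 ± 4.67 to 5.49 ± 2.29 (SD, n = 6 each), which is -2.15 ± 0.33 on the log2 scale (fitted value ± SE, adjusted p = 8.9e-10 by DESeq2).

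The second lost CIITA peak, chr16:10876503-10877408, lay 10.3 kb from the nearer end of the gene. No transcription start of CIITA was among the promoters used, so the distance of this peak from a start was not measured. Control libraries ranged from 27.7 through a median of 49.0 to 59.9, and knockdown libraries from 13.0 through 18.8 to 22.5. The 2 ranges did not touch. The log2 fold change was -1.35 ± 0.22 (DESeq2 adjusted p = 1.0e-08) and came out at -1.34 in each batch alone.

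The other 3 CIITA peaks were not called, and they were the 3 with the higher counts. The wide peak chr16:10870448-10872071, 4.24 kb inside the gene, went from 61.2 ± 5.41 to 49.5 ± 10.5 (log2 -0.30 ± 0.16, adjusted p = 0.111). Knockdown replicate 1 stood at 69.4 there, above all 6 controls, while the other 5 knockdown libraries lay between 42.8 and 53.1. Without that library the peak was called lost (log2 -0.45, adjusted p = 0.0251). The peak nearest to an end of CIITA, chr16:10943910-10945366, was 889 bp outside the gene and covered the start of CLEC16A, the neighbouring gene. Its mean count was 102 in both groups (log2 -0.03, 95% interval -0.29 to 0.23), the highest of the 5 peaks. Summed over the 5 peaks, the count was 301 ± 16.3 in control and 249.9 ± 17.4 in knockdown libraries, a ratio of 0.830.

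**Figure D2:**
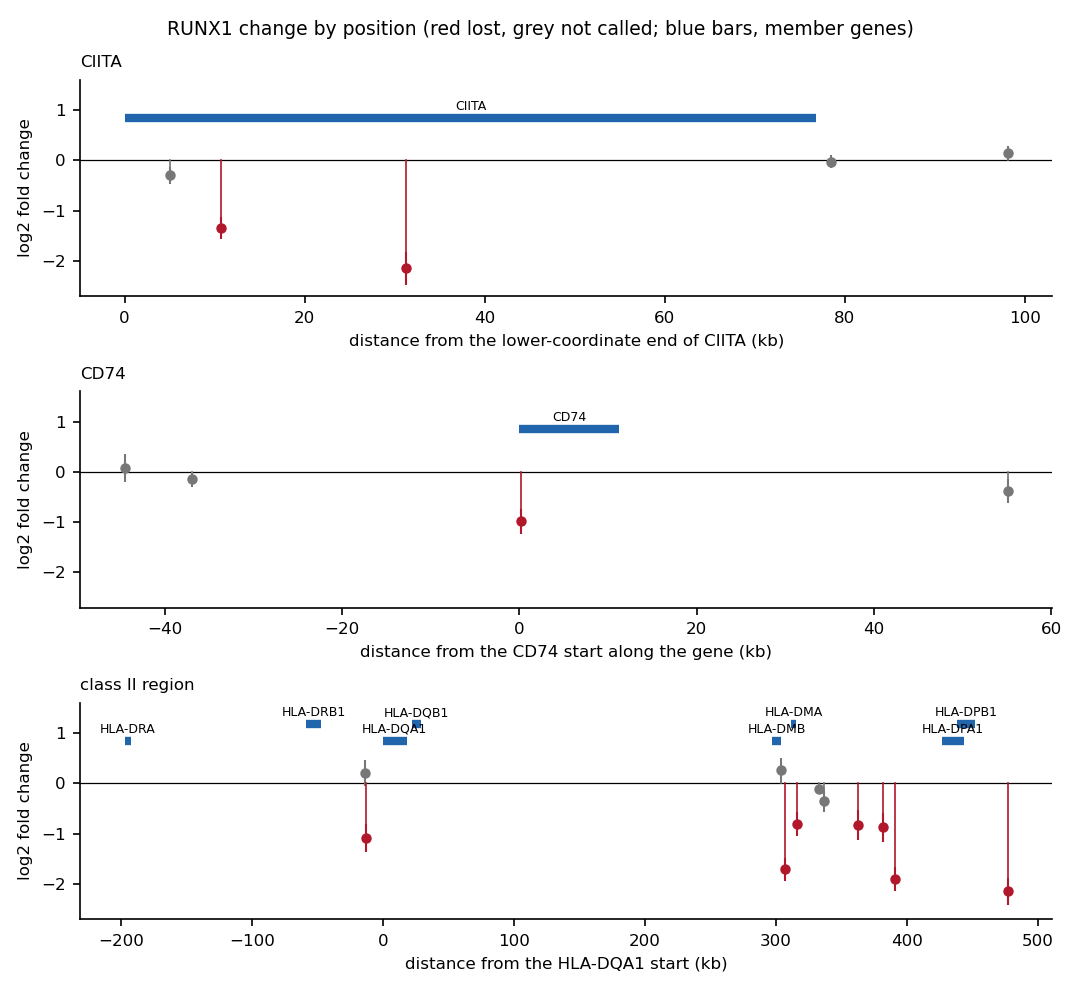
Log2 fold change (points, bars are SE) of the member peaks against their distance in kb from the lower-coordinate end of CIITA (top), from the CD74 start along the gene (middle) and from the HLA-DQA1 start (bottom), with member genes as blue bars. Red peaks were lost and grey peaks not called. Near CIITA the 2 lost peaks lay inside the gene, near CD74 the lost peak lay on the start, and in the class II region 7 of 11 peaks were lost.

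At CD74 the peak over the gene's start was the lost one. This peak, chr5:150412153-150413306, contains the whole CD74 promoter printed above. In batch 1 the 3 controls stood at 44.2, 35.4 and 39.2 and the 2 knockdown libraries at 17.4 and 18.4. In batch 2 the controls stood at 12.1, 41.0 and 32.7 and the knockdown libraries at 27.3, 16.5, 15.3 and 8.39. Batch 1 was therefore cleanly separated, whereas in batch 2 control replicate 4 (12.1) fell among the knockdown values. Over both batches the mean went from 34.1 ± 11.5 to 17.2 ± 6.09 (log2 -0.98 ± 0.25, DESeq2 adjusted p = 4.4e-04). The batches gave -1.12 (adjusted p = 0.0479) and -0.83 (adjusted p = 0.0997).

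The other 3 peaks near CD74, 36.2 to 44.2 kb from its span, were not called and had log2 fold changes of -0.38, -0.15 and 0.08. They lay in TCOF1, over the start of RPS14, a ribosomal protein gene, and beyond RPS14. The RPS14 peak was the highest of the 4 (70.3 ± 14.4 and 62.8 ± 3.90). Just outside the 50 kb limit the picture near CD74 was the opposite one: 3 peaks that were not members, and to which NDST1 was the nearest protein-coding gene, were gained, chr5:150476708-150478774 (139 to 207, log2 0.54), chr5:150487792-150489170 (29.4 to 70.7, log2 1.25) and the small peak chr5:150489430-150490235 (log2 0.79). They were named after their values were seen, because they are the only gains within 100 kb of any of the 10 genes. Between 50 and 100 kb from the class II genes, in contrast, 4 of 5 peaks were lost and 0 gained, and near CIITA 0 of 3 were called. Over all peaks, 20.7% were lost and 21.3% gained. The lost peaks at this distance from class II genes include those at TAP2, PSMB8, TAP1 and PSMB9. These are genes of class I presentation, and their peaks are counted again in the lists below.

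HLA-DR is the most abundant class II molecule on most antigen-presenting cells, and its alpha chain gene was the one without a peak. The nearest peaks to HLA-DRA (chr6:32439887-32445046) lay 184016 bp to one side and 177863 bp to the other, a stretch of 367 kb with no peak. Of all gaps between neighbouring peaks 5.77% were at least as long, the median gap being 35.2 kb, and 19.2% of 20037 protein-coding genes had no peak within 50 kb. Some class II genes of this stretch are polymorphic or have near-identical copies. How their reads were placed is not given in the sources used here, and its part in the missing peaks was not tested.

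HLA-DRB1, HLA-DQA1 and HLA-DQB1, which code for the DR beta chain and both DQ chains, shared the same 2 peaks, a close pair upstream of HLA-DQA1. The right one, chr6:32623638-32624179, was 13.2 kb from the HLA-DQA1 start and was lost. Its control libraries ranged from 11.6 (median 24.0) to 34.7, and the knockdown libraries from 9.32 (median 11.4) to 11.9. The groups overlapped through 1 control library, replicate 6, at 11.6. The log2 fold change was -1.08 ± 0.28 (DESeq2 adjusted p = 6.3e-04), with an adjusted p of 0.213 in batch 1 alone and 0.0264 in batch 2 alone, where the log2 value was -1.13. The left one, chr6:32622909-32623467, is only 170 bp away and was not called (17.7 ± 3.78 and 21.1 ± 4.70, log2 0.20, 95% interval -0.31 to 0.70).

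The HLA-DM genes lie side by side and their RUNX1 peaks showed the same arrangement. Close to the HLA-DMB start, chr6:32941249-32942020 had 23.9 ± 9.14 in control and 29.7 ± 8.65 in knockdown libraries (log2 0.26, 95% interval -0.23 to 0.75) and was not called. Between the 2 genes, 1920 bp further on, chr6:32943941-32944800 was lost. Here the controls stood at 48.1, 47.5 and 28.8 in batch 1 and 45.1, 35.2 and 44.2 in batch 2, and the knockdown libraries at 9.13 and 14.5 in batch 1 and 11.9, 13.2, 13.4 and 13.0 in batch 2. No knockdown library came near the lowest control library. The mean fell to 30.2% of control (log2 -1.71 ± 0.23, DESeq2 adjusted p = 6.1e-12), with -1.77 in batch 1 and -1.67 in batch 2.

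In both of these neighbouring pairs the balance between the peaks shifted within single libraries. Such a ratio of raw counts does not depend on any scaling between libraries, and the pairs were chosen after their values were seen, so no test is given. Each pair sets a peak called lost over a neighbour that was not called. A lower ratio in knockdown libraries therefore follows from that choice, and the ratios only describe the calls. The adjacent BRD2 peaks, neither of them called, were not compared in this way. For the HLA-DMB pair the lost peak held 0.938 to 3.25 times the reads of its neighbour in control libraries and 0.222 to 0.786 times in knockdown libraries. For the pair upstream of HLA-DQA1 the ratio was 0.579 in control replicate 6, 1.15 or more in the other 5 control libraries and 0.400 to 0.750 in knockdown libraries. The HLA-DMB ranges were separate, and the HLA-DQA1 ranges overlapped through that 1 control library.

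**Figure D3:**
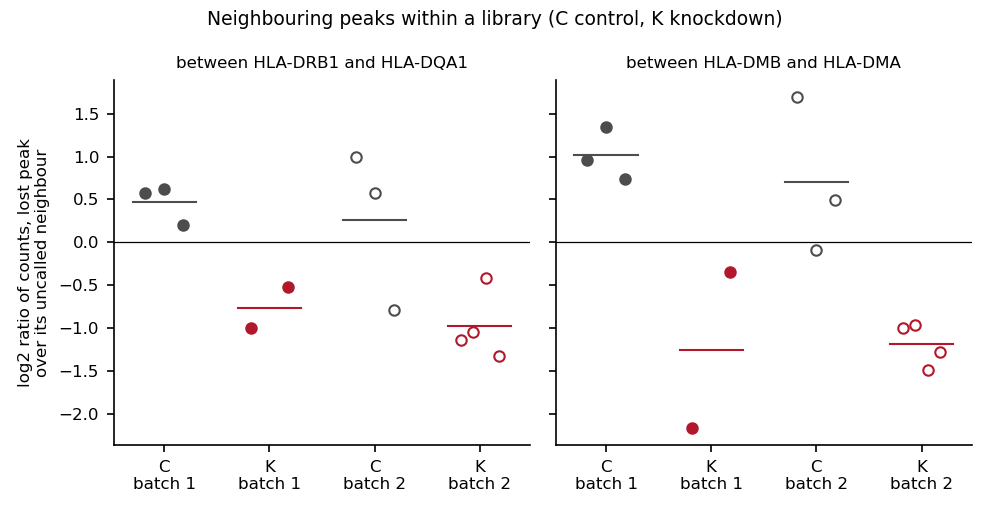
Log2 ratio of raw counts in the lost peak over its uncalled neighbour, for the pair upstream of HLA-DQA1 (left) and the pair between HLA-DMB and HLA-DMA (right), with 1 point per library and a line at the mean of each group (filled, batch 1; open, batch 2). The mean moved from 0.37 ± 0.62 in control to -0.91 ± 0.36 in knockdown libraries on the left, and from 0.86 ± 0.64 to -1.21 ± 0.61 on the right (SD, n = 6 each). Each pair was picked as a lost and an uncalled peak, so a fall follows from the choice.

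The HLA-DMA start was covered by chr6:32952987-32953946, which holds the HLA-DMA promoter printed above and was lost. Control libraries were at 26.0, 25.1 and 20.7 in batch 1 and 39.9, 30.5 and 36.9 in batch 2, and knockdown libraries at 15.5 and 17.1 in batch 1 and 22.6, 23.8, 14.0 and 12.1 in batch 2. The groups were apart within each batch, but the highest knockdown values of batch 2 exceeded the lowest control value of batch 1. The log2 fold change was -0.81 ± 0.24 (DESeq2 adjusted p = 0.00239). With all libraries randomly reduced to the lowest in-peak total, which evens out only the reads inside peaks, this peak and the CD74 start were no longer called (log2 -0.67 and -0.76, DESeq2 adjusted p = 0.0942 and 0.0673), and 14.9% of all peaks were lost.

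Next to HLA-DMA lies BRD2, which codes for a bromodomain protein and not for an antigen-presentation gene, and 2 member peaks belonged to it. The 6864 bp peak chr6:32966549-32973412 was the highest in the class II region, above 99.9% of all peaks, at 414 ± 54.8 in control and 377 ± 19.9 in knockdown libraries (log2 -0.11, 95% interval -0.26 to 0.04). The smaller one, chr6:32973688-32974384, was not called at 30.3 ± 2.03 and 22.8 ± 4.16 (log2 -0.36, adjusted p = 0.157), although every knockdown library was below every control library. The BRD2 peak made up most of the summed counts of HLA-DMA and HLA-DMB, whose knockdown over control ratios were 0.843 and 0.853.

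HLA-DPA1 and HLA-DPB1, the alpha and beta chain genes of HLA-DP, had the lowest summed counts relative to control of the 9 genes with a peak, and all 3 of their peaks were lost. The peak chr6:33114233-33114885, 24.5 kb from HLA-DPB1 and inside the transcribed pseudogene HLA-DPB2, had control values of 32.5, 53.0 and 40.3 in batch 1 and 31.2, 57.5 and 51.6 in batch 2. Knockdown values were 8.22 and 12.5 in batch 1 and 10.7, 15.2, 4.46 and 10.3 in batch 2. The ranges were far apart, and the mean fell to 23.0% of control (log2 -2.15 ± 0.26, DESeq2 adjusted p = 1.3e-14). Reads in this pseudogene may be shared with similar class II genes, so their placement is uncertain.

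On the other side, chr6:33027786-33028401 lay between HLA-DPA1, at 36.2 kb, and HLA-DOA, which was its nearest protein-coding gene at 18195 bp. The peak fell to 26.2% of control. Its control libraries ranged from 34.4 (median 43.3) to 58.8 and its knockdown libraries from 5.94 (median 11.2) to 15.9, with no overlap (log2 -1.91 ± 0.24, adjusted p = 6.0e-14). Both peaks were called in each batch alone. Summed per library, the 2 peaks of HLA-DPB1 gave 89.3 ± 14.3 in control and 22.0 ± 5.89 in knockdown libraries, a ratio of 0.246, and the 3 peaks of HLA-DPA1 gave a ratio of 0.299. No peak lay closer than 24.5 kb to either gene.

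The other lost peaks of the region were low and lay around HLA-DOA, the alpha chain of HLA-DO, which modulates HLA-DM. At chr6:33018813-33019404, which counts for HLA-DPA1, the mean was 20.7 ± 6.84 in control and 10.9 ± 2.56 in knockdown libraries (log2 -0.87 ± 0.29, DESeq2 adjusted p = 0.00835). At chr6:33000018-33000468, which counts for HLA-DMA, the controls lay between 13.8 and 21.4 and the knockdown libraries between 8.22 and 11.2 (log2 -0.82 ± 0.30, adjusted p = 0.0179). These were the 2 least certain losses. The first was not called without control replicate 4 (adjusted p = 0.0687), and the second was called in neither batch alone and depended on 3 of the 12 libraries (control replicate 2 and knockdown replicates 1 and 2). With the replicate number as a block, they missed the threshold at adjusted p = 0.154 and 0.107, and with all libraries reduced to the lowest in-peak total at 0.0829 and 0.153 (log2 -0.82 and -0.75).

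**Figure D4:**
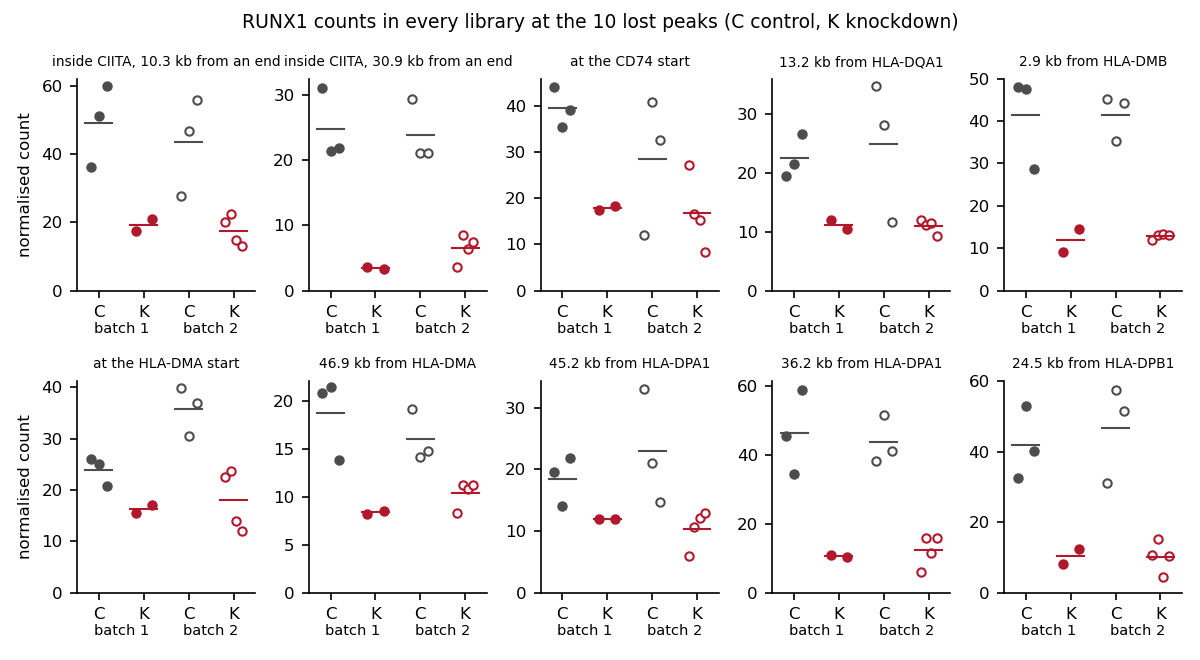
Normalised count in every library at the 10 lost peaks, each axis starting at 0 (grey, control; red, knockdown; filled, batch 1; open, batch 2; lines are means within batch). Knockdown and control libraries were apart in both batches at 8 of the 10, and overlapped in batch 2 through 1 control library at the CD74 start and at the peak 13.2 kb from HLA-DQA1.

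The 20 peaks were also split by their position, as a description. Where the nearest protein-coding gene was 1 of the 10 genes, 7 of 10 peaks were lost (median log2 -1.03), and where it was another gene, 3 of 10 were lost (median -0.26). Over all peaks 20.7% were lost, and with 10 peaks on each side the difference between them was not tested. Within 1 kb of the RefSeq start of a protein-coding gene 2 of 7 peaks were lost, the CD74 and HLA-DMA starts. Among all such peaks 17.7% were lost. Farther away 8 of 13 were lost, where 21.5% of all such peaks were lost. No start of CIITA was among the promoters used, so its 2 lost peaks count as farther away only by the starts of other genes. The split by distance is therefore uncertain for them. The members' counts were close to those of other peaks, with a median mean count of 26.7 against 31.2, and a median width of 816 bp against 889 bp. The median log2 fold change of all peaks in the surrounding 10 Mb was 0.04 to 0.05 near CIITA, 0.10 near CD74 and -0.05 to -0.04 in the class II region.

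**Figure D5:**
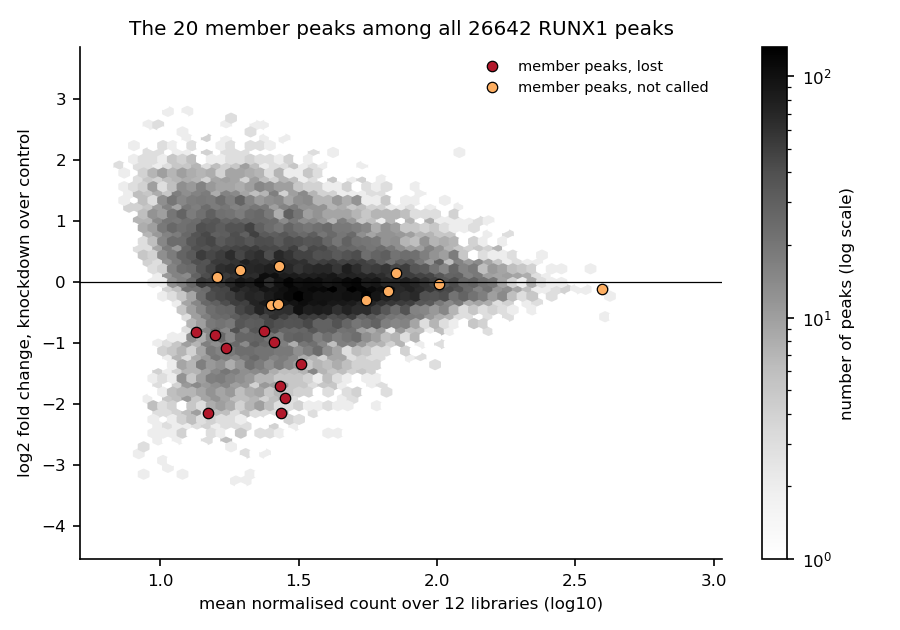
Log2 fold change (knockdown over control) against the mean normalised count over 12 libraries (log10) for all 26642 peaks as grey hexagons, darker where more peaks lie (log scale), with the 20 member peaks on top (red, lost; orange, not called). The lost members had mean counts of 32.2 or less, and the highest member, the BRD2 peak at 396, was near 0.

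The rest of the pathway was read from 4 further gene lists, again within 50 kb. Near the other class II chain genes, HLA-DOA, HLA-DOB, HLA-DQA2 and HLA-DQB2, 6 of 10 peaks were lost and 0 gained (median log2 -0.46, where 42.0% of all peaks were called), and 5 of the 10 peaks are also member peaks, 3 of them lost. HLA-DRB5 had no peak. The smallest adjusted p in this list was that of chr6:33027786-33028401, described above with HLA-DPA1. The next, chr6:32842350-32846051 over the start of PSMB8, an immunoproteasome subunit, and reaching into TAP1, a peptide transporter gene, went from 161 ± 16.5 to 100.3 ± 19.3 (log2 -0.69, DESeq2 adjusted p = 1.3e-07). This peak and its neighbours also stand in the list of class I presentation, where 10 of 31 peaks were lost and 2 gained (38.7% called, median -0.20). There, chr16:56950679-56952113, which counts for NLRC5, the class I counterpart of CIITA, by its distance but has HERPUD1 as its nearest gene, at 5815 bp, fell by 1.13 on the log2 scale (adjusted p = 7.4e-07). A second peak that counts for NLRC5, chr16:56964388-56965817 inside CETP, was gained (90.7 to 119, log2 0.38, DESeq2 adjusted p = 0.00647).

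The lists of the class II transcription machinery and of antigen processing and turnover held both losses and gains, as all peaks did (20.7% and 21.3%). Near RFX5, RFXAP, RFXANK, CREB1, NFYA, NFYB and NFYC, which together place CIITA on class II promoters, 10 of 32 peaks were lost and 6 gained (16 of 32 called, median -0.19), and 16 of the 32 lay near NFYC alone. The smallest adjusted p belonged to 2 peaks inside NFYC, chr1:40712598-40713742 (171 to 88.8, log2 -1.01, DESeq2 adjusted p = 5.2e-14) and chr1:40741747-40743017 (139.9 to 70.0, log2 -1.03, adjusted p = 1.5e-10). Near the proteases and reductase that prepare peptides (IFI30, CTSS, CTSL, CTSH, LGMN) and the ubiquitin ligases that turn class II over (MARCHF1, MARCHF8), 10 of 28 were lost and 6 gained (57.1% called, median -0.01). Here the lowest values of p were at chr14:92676762-92677514 near LGMN, which lies in RIN3 (log2 -1.74, DESeq2 adjusted p = 2.3e-13), and at chr4:163556916-163557443 in MARCHF1 (log2 -1.89, adjusted p = 1.3e-08).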

How the data were processed

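The deposited table holds raw counts, the number of reads in each peak and RUNX1 library, with no normalization. The authors obtained the counts with featureCounts over 1 peak set shared by knockdown and control. That set unites peaks found by macs2 in both batches of a condition, from bowtie2 alignments without duplicate reads. Peak width in bp is the other deposited column used. Since peaks were defined on these libraries, the set is not independent of the comparison. The methods name a mouse build for human cells. Coordinates were taken as GRCh38, because 20.6% of peaks lay within 1 kb of the RefSeq start of a protein-coding gene, against 2.71% to 3.59% when all were moved by 10 kb to 1 Mb.

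The test was DESeq2 1.42.0 (R 4.3.3) over all 26642 peaks, with batch in the model and its default size factors, and again within each batch. Normalised counts are counts over size factors. Calls required an adjusted p (Benjamini-Hochberg) below 0.05 and a fold change over 1.1. The main alternative was edgeR 4.0.16. The labels do not say whether replicates came from separate cultures, so p-values measure the spread between libraries. In-peak reads were 630247 to 1199004 per control and 938745 to 1719840 per knockdown library. No library was counted as a duplicate (chi-square over degrees of freedom 1.29 to 2.24 between libraries of the same group). Counts were simulated for the 26642 peaks, 200 of them changed 2-fold. DESeq2 recovered 86.5% of these in the comparison over both batches, and 28.5% and 47.5% in batches 1 and 2 alone. The 200 were drawn only from peaks above a minimum mean normalised count, which the lowest members, down to 13.5, did not reach. Recovery at such low peaks was not simulated.

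Named peaks were all called members, the peak nearest each gene's start, the highest peak per region and, for each other list, the 2 calls with the smallest adjusted p. CIITA has no strand in the sources used, so both of its ends were treated as a start. Any start inside the gene was not considered. Members and lists were chosen with earlier results of these data known. Promoter sequences are from RefSeq (GRCh38.p14), which matched 8 of the 10 genes.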

Additional observations from a re-analysis of the deposited data

Results flagged for a closer look

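Dixon's test was applied to the highest and lowest library of each group in 62 groups of 6 values (the 20 peaks and the summed counts, control and knockdown), and 3 single libraries stood apart, where about 3.10 are expected when 1 in 20 groups is picked by chance. At the CD74 start (chr5:150412153-150413306), control replicate 4 had a normalised count of 12.1, with the other controls at 32.7 to 44.2. At chr6:33018813-33019404, knockdown replicate 3 had 5.94, with the others at 10.6 to 13.0. In the sum over the 5 CIITA peaks, control replicate 4 had 269, with the others at 303 to 315. Control replicate 4 was also the library with the fewest in-peak reads, 630247, and the part of its depth in these values was not tested.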

How the results depend on the processing

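Each of the 10 losses kept its direction under the alternatives in which its peak was tested, and 0 of the 20 peaks were gained under any that kept the 50 kb window. The 10 losses became 8 with the replicate number as a block, which dropped chr6:33018813-33019404 and chr6:33000018-33000468 (adjusted p = 0.154 and 0.107) and changed no other call. The same replicate number did not mark related libraries (correlations of deviations -0.101 to 0.012), so the numbers share only a name. The count of losses was 6 with a fold change over 2, 6 after thinning, and 4 of the 12 peaks that kept at least 10 counts in every library (median log2 -0.27, where 15.7% of the peaks tested were lost, against 20.7%). That filter leaves out peaks that fell to low counts, 6 lost peaks among the 8 it left out, so it did not test those losses. Thinning also lowered the peaks with no overlap from 9 to 5. The share of all peaks with no overlap after thinning is not given, so this drop is not a result about the members. With a 10 kb window 5 of 8 peaks were called, all lost (median -0.89), and with 100 kb 17 of 32 (3 gained, median -0.33). Peaks whose nearest gene was a member gave a median of -1.03. Leaving out 1 library at a time gave 9 to 10 losses over both batches. In batch 2 it gave 5 (without knockdown replicate 5 or 6) to 8, and the median ranged from -0.69 to -0.51. In batch 1, leaving out 1 control library gave 3 (without control replicate 2) to 5 losses. Without a knockdown library, batch 1 has 1 left, whose spread is taken from the controls, so only the median is given. It was -0.46 without knockdown replicate 1 and -0.47 without knockdown replicate 2. The shares of all peaks called in these fits are not given, so the counts do not set the members apart from other peaks. The summed ratio for HLA-DMA ranged from 0.822 to 0.876. In the 10 kb window, calls in either direction were 2 of 2 for the other class II chains and 11 of 20 for the transcription machinery. They were 8 of 11 for processing and turnover and 5 of 13 for class I presentation, where 42.0% of all peaks were called. These small counts are not split into gains and losses here and give no result about a list. Low counts limit single peaks, whose median SE was 0.24 on the log2 scale, and IgG background was not subtracted.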
